A study of Danio rerio with 31 samples.

Results

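Whole brains of 12 adult zebrafish of the F2 generation were compared by sex, 8 females against 4 males, out of 24 fish in the series. The F2 fish were chosen by their labelled generation and sex. All carried the strain label TU and had not themselves been exposed. They descended from 2 lines, a treated line whose F0 ancestors had been exposed to a mixture of polychlorinated biphenyls and polybrominated diphenyl ethers, and a control line. Each line gave 4 females and 2 males, so line entered the fit as a term beside sex. The other 12 fish were F0 males, 6 exposed and 6 controls. Their values are given beside some F2 values, but generation and sex cannot be told apart between F0 males and F2 females. Ages, families and tanks were not given in the sources used here, and p-values measure only the spread between these fish.

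Laboratory zebrafish have no sex chromosome that is recognised in all strains, and sex follows many loci together with the environment. In the adult teleost brain, sex steroids from the gonads and from local aromatase act through their receptors, and hypothalamic neurons release gonadotropin-releasing hormone and other peptides that drive the pituitary. Thyroid hormone is a second endocrine input. Deiodinases activate or inactivate it within the tissue before it reaches its nuclear receptors.

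RNA was sequenced as mRNA libraries, and reads were counted per gene. Gene reads summed to between 15.2 and 30.1 M in the females and between 12.2 and 24.7 M in the males. Levels are given in CPM, counts scaled to the library total, with one scaling over all 24 fish. Defining brain genes were detected in all 12 fish, at unlike levels. Of these, mbpa, which encodes myelin basic protein, lay between 7807 and 13994 CPM and GAD2, which encodes a GABA-synthesising enzyme, between 209 and 410 CPM. The 2 SNAP25 IDs lay at 2008 to 2386 and 873 to 1261 CPM, ELAVL3 at 76.2 to 172 CPM and GFAP at 38.0 to 108 CPM. The 2 SLC17A6 IDs lay at 183 to 355 and 1.56 to 9.49 CPM. Of 6 measures of library quality, none passed between the sexes by an exact two-sided permutation test adjusted over the 6. The share of uniquely aligned reads outside genes averaged 21.3 ± 1.67% (SD, n = 8) in females and 19.5 ± 1.42% (SD, n = 4) in males, with an exact permutation p of 0.103 and an adjusted p of 0.448. The libraries of 3 females stood apart. After every library was thinned to the same depth, 15665 genes were detected in female 6 of the treated line, 16017 in female 24 of the treated line and 16420 in female 21 of the control line. The other females gave 18184 to 20532 genes and the males 19815 to 20996. The mean number of genes detected was 18283 in females and 20496 in males, with an exact permutation p of 0.0545 and an adjusted p of 0.303. The genes that passed by sex over both lines, several lists and some other genes are therefore given with and without these 3 females. Most other single genes are given with them only.

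**Figure D1:**
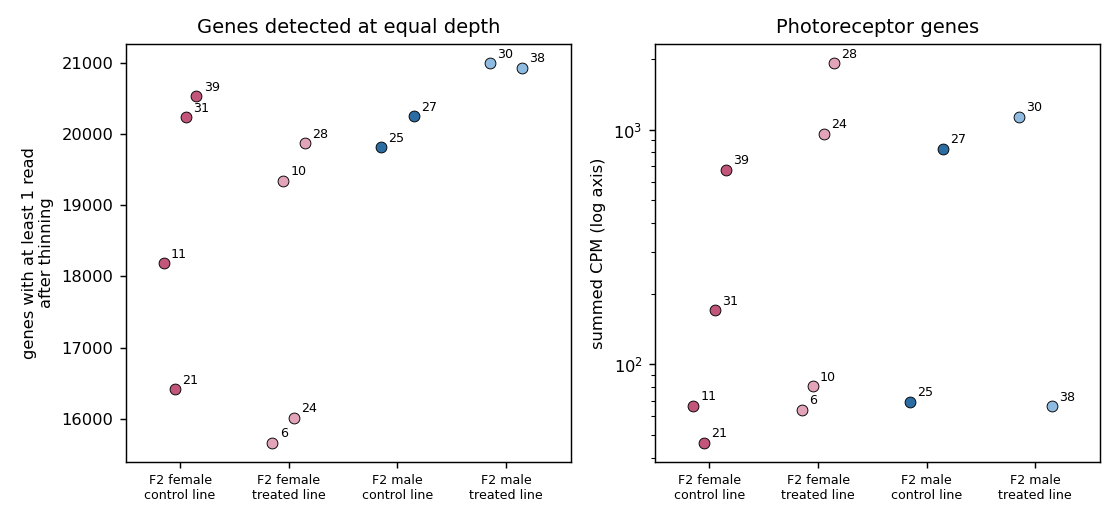
Left, genes with at least 1 read after thinning each F2 library to the same depth. Right, summed CPM of 45 photoreceptor genes on a log axis. Each point is a fish, labelled with its number. Females 6, 24 and 21 hold the fewest genes, and photoreceptor genes range from 46.3 to 1925 CPM with high and low fish in both sexes.

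Few genes separated the sexes. Of 19463 genes tested, 3 passed an adjusted p of 0.05 with edgeR's quasi-likelihood test, and all 3 were higher in males (0.0154% of genes tested). These were DIO2, si:dkey-238o13.4 and ITPRID2. No gene was higher in females at that threshold (0.0%), while 483 were at an unadjusted p below 0.05 (2.48%), and 523 were higher in males at that level (2.69%). With another scaling, the relative log expression factors, these counts were 583 and 416, so the balance of directions among such genes depended on the scaling. DESeq2 called 12 genes, 5 higher in females and 7 in males, including the 3. Without the 3 females whose libraries stood apart, DIO2 alone passed. In all, 83 genes (0.426%) had every male above every female and 33 (0.17%) had every female above every male.

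DIO2 (ENSDARG00000094857) encodes type 2 deiodinase, the enzyme that converts thyroxine to the more active triiodothyronine. Its level in females ran from 32.3 to 68.1 CPM with a median of 42.8. In males it was 165 and 190 CPM in the control line (fish 25 and 27) and 154 and 226 CPM in the treated line (fish 30 and 38). Every male lay above every female, with a wide gap between the highest female and the lowest male. The means were 45.5 ± 12.1 CPM (SD, n = 8) and 184 ± 32.2 CPM (SD, n = 4). DIO2 was 4.01-fold higher in males (log2 female over male −2.0 ± 0.17, SE), with an edgeR adjusted p of 2.1e-05.

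The difference in DIO2 was of the same size in both lines, with a log2 of −2.02 in the control line and −1.98 in the treated line, and the interaction of sex and line had an unadjusted p of 0.913. It passed in all 23 alternative settings, and its log2 ranged from −2.11 to −1.90. Without females 6, 24 and 21 it was −2.11 with an adjusted p of 0.000364. The 12 F0 males held DIO2 at 112 to 172 CPM, with a median of 135 CPM. They too lay above all 8 F2 females. This was not particular to DIO2. FIBP, DMXL2, ASPA, prr7 and SREBF1, none of which passed by sex, also had all F2 and F0 males above all F2 females.

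si:dkey-238o13.4 (ENSDARG00000078847), known by a clone name and singled out after its values were seen, had the second lowest p. Females ranged from 51.2 to 101 CPM with a median of 89.7. The control-line males had 239 and 233 CPM and the treated-line males 202 and 216 CPM. The sexes did not overlap, and the 4 males lay close together. The means were 83.5 ± 18.1 CPM (SD, n = 8) in females and 222 ± 16.9 CPM (SD, n = 4) in males. The gene was 2.65-fold higher in males (log2 −1.40 ± 0.15, SE, edgeR adjusted p = 0.000137), with −1.42 in the control line and −1.39 in the treated line. It passed in 22 of 23 alternatives and missed the threshold without females 6, 24 and 21, at a log2 of −1.46 and an adjusted p of 0.056. F0 males had 75.7 to 157 CPM. These values overlapped those of F2 females and stayed under those of every F2 male, unlike DIO2.

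ITPRID2 (ENSDARG00000038938), whose human counterpart encodes a protein that binds inositol trisphosphate receptors, differed by a smaller factor. Its level was 80.7 to 129 CPM in females, with a median of 90.9. Males had 151 and 144 CPM in the control line and 152 and 207 CPM in the treated line. The lowest male was above the highest female, but the treated-line females lay nearer to the males than the control-line females did. ITPRID2 was 1.63-fold higher in males (log2 −0.70 ± 0.11, SE, edgeR adjusted p = 0.036). The call was not stable: it held in 6 of 23 alternatives, its direction held in all of them, and the adjusted p was 0.0887 without females 6, 24 and 21. F0 males had 116 to 211 CPM, a range that overlapped both sexes of F2.

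**Figure D2:**
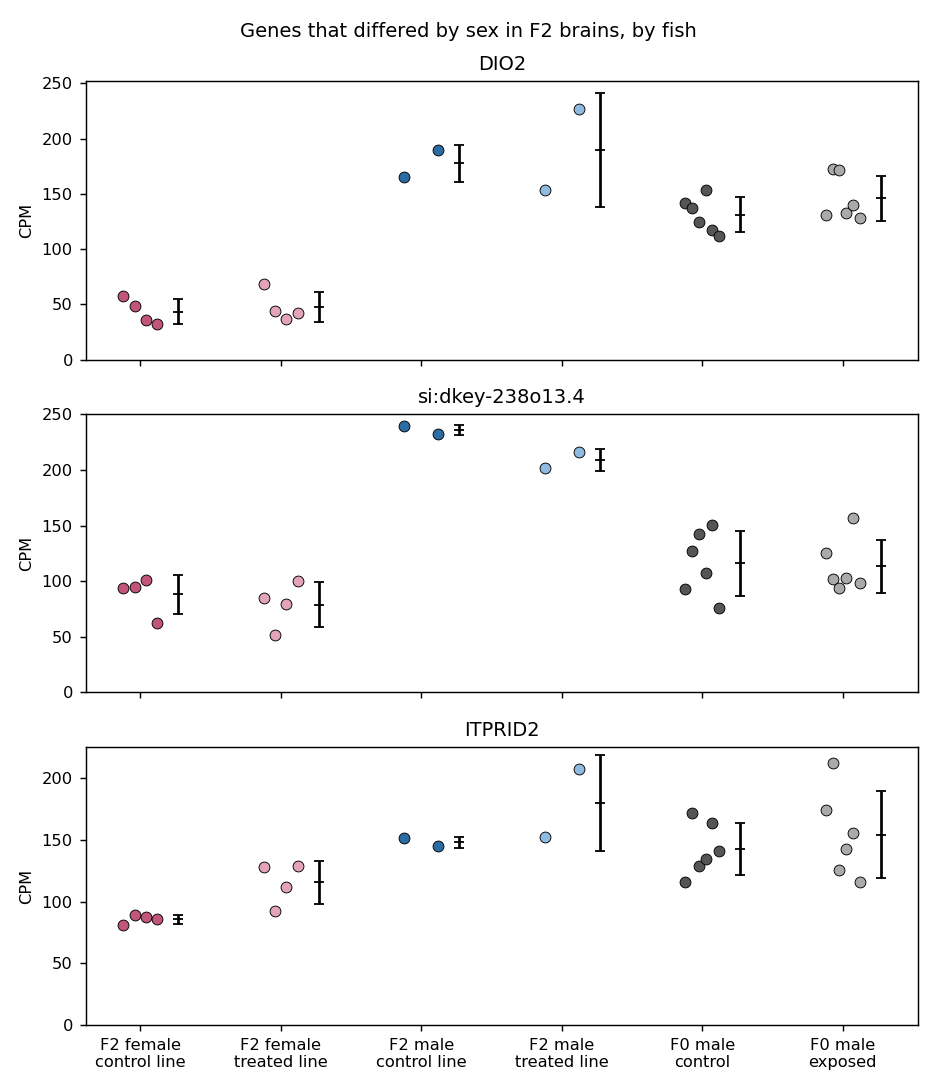
Level in CPM of the 3 genes that passed in each fish, by sex and line in F2 and by exposure in F0 males. Points are fish, and the bars beside them give the mean and SD of the group. DIO2 lies at 32.3 to 68.1 CPM in F2 females and at 154 CPM or above in F2 males, while F0 males overlap F2 males for DIO2 and lie below them for si:dkey-238o13.4.

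DIO2 was the only member of the thyroid signalling list that passed. Of 26 gene IDs on the list, 21 were tested, 10 with a log2 towards females and 11 towards males. At an unadjusted p below 0.05, 2 were higher in males (9.52%, beside 2.69% of all genes), DIO2 among them. The median log2 was −0.01, beside −0.03 for all genes tested.

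The inactivating deiodinase gene dio3b had 9.44 to 71.3 CPM in females, with a median of 37.2, and 20.7, 29.7, 24.9 and 18.6 CPM in males 25, 27, 30 and 38. The groups overlapped throughout (log2 0.66 ± 0.45, SE, edgeR adjusted p = 0.999). DIO1, which encodes type 1 deiodinase, had a log2 of −0.44 ± 0.30 (SE) and the same adjusted p. Without females 6, 24 and 21 the log2 was −0.67 ± 0.27 for DIO1 and 0.56 ± 0.40 for dio3b (SE), and neither passed. The receptor gene THRB averaged 62.4 ± 23.1 CPM (SD, n = 8) in females and 47.5 ± 12.1 CPM (SD, n = 4) in males and did not pass. In the control line females had 63.8 to 107 CPM of THRB and males 36.1 and 56.2 CPM, without overlap (log2 0.76 ± 0.29, SE). With so few fish in a line such separation arises easily by chance. In the treated line the sexes overlapped (log2 −0.05 ± 0.29, SE). The difference between the lines had an edgeR unadjusted p of 0.0612. The 2 IDs that share the symbol THRA had log2 values of −0.10 and 0.15. TRH, the gene of thyrotropin-releasing hormone, had a log2 of 0.30 ± 0.21 (SE). The carrier gene TTR had 0 of 239666283 F2 gene reads, which allows a level of up to 0.0125 CPM, for counting error only.

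Each line gave its own estimate of the sex difference from 4 females and 2 males, and the lines share no fish. In the control line 4 genes passed (0.0206%), 3 higher in males and 1 in females, and in the treated line 1 passed (0.00514%), DIO2. The control-line calls were DIO2, si:dkey-238o13.4, HSPA8 and an ID annotated 5S_rRNA. No gene passed the test of a difference between the lines with edgeR (0.0%), 291 had an unadjusted p below 0.05 (1.5%), and DESeq2 called none. Without male 27 no gene passed in the control line, and leaving out any 1 of male 38, female 10, female 24 and female 28 left none in the treated line. Leaving out a male leaves its line with 1 male, which is then assumed to vary like the other groups. Without male 27 the control-line values were −1.92 for DIO2, −1.43 for si:dkey-238o13.4 and −0.84 for HSPA8, beside −2.02, −1.42 and −1.10 with it. The treated-line value of DIO2 was −1.69 without male 38 and −1.88 to −1.95 without each of those females, beside −1.98 with all fish.

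HSPA8, the symbol of a chaperone gene, named 2 IDs, and the values here are those of ENSDARG00000037403. The other ID was not called in either line, and its values are not given here. ENSDARG00000037403 stood at 67.4 to 90.04 CPM in the control-line females. The control-line males had 144 and 200 CPM, and both lay above those females, a separation that arises easily by chance with so few fish. In the treated line the females had 62.1 to 81.1 CPM and the males 79.8 and 77.8 CPM, so they overlapped. The log2 was −1.10 ± 0.17 (SE, edgeR adjusted p = 0.0357) in the control line and −0.09 ± 0.18 (SE) in the treated line. The difference between the lines had an unadjusted p of 0.000951 and did not pass after adjustment. The control-line call was not stable. When each female was left out in turn, it passed only without treated-line female 24 (edgeR adjusted p = 0.0483). The adjusted p was otherwise 0.0645 to 0.177, at a log2 of −1.16 to −1.02. The ID ENSDARG00000106940 is 1 of 1947 that share the symbol 5S_rRNA, and how reads were split among such copies is uncertain. It had 5.05 to 11.14 CPM in the control-line females and no read in either control-line male (adjusted p = 0.0116), against 2.51 to 11.2 CPM in the treated-line females and 0.932 and 2.61 CPM in the treated-line males.

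Over 9138 genes with at least 10 CPM on average, the log2 values of the lines had a Spearman correlation of 0.325 across genes, which are not independent replicates, and 61.7% had the same sign. Over all 19463 genes the correlation was 0.15 and 57.7% had the same sign. Of 25 genes with an unadjusted p below 0.001 in the control line, 22 had the same direction in the treated line. Of these, 7 had an unadjusted p below 0.05 there, among them DIO2, si:dkey-238o13.4 and ITPRID2. Of all 19463 genes, 150 had such a p towards females and 270 towards males in the treated line. The median size of the 25 genes was 0.92 on the log2 scale in the control line and 0.30 in the treated line. They were chosen by p in the control line, which by itself favours larger sizes there. The 2 genes chosen in the same way in the treated line had a median of 1.69 there and 1.72 in the control line.

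**Figure D3:**
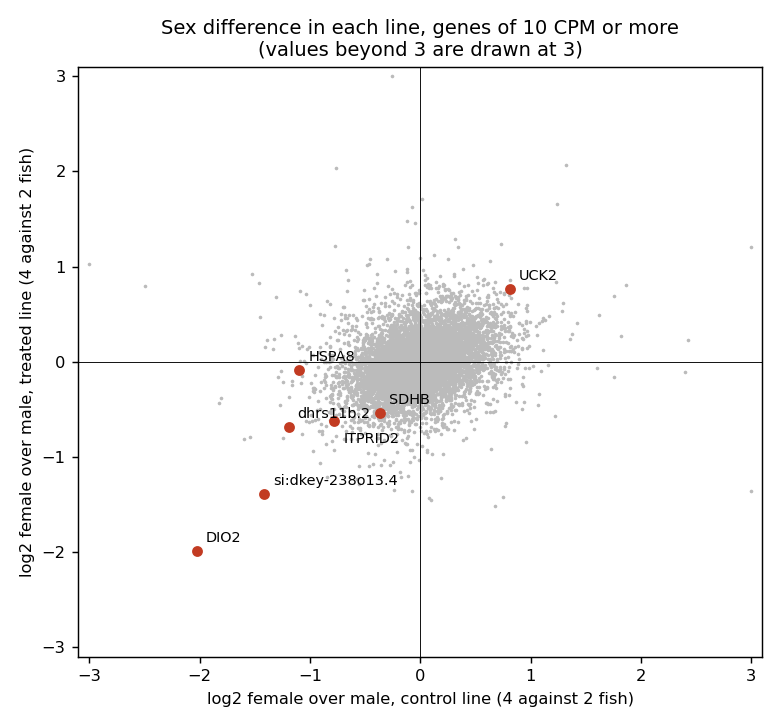
Log2 female over male in the control line (horizontal) and in the treated line (vertical) for 9138 genes of 10 CPM or more. Each grey point is a gene, red points are named, and values beyond 3 are drawn at 3. DIO2 and si:dkey-238o13.4 lie near the diagonal at the lower left, while the HSPA8 ID ENSDARG00000037403 lies at −1.10 and −0.09.

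None of the 5 genes nearest to passing towards females reached the threshold. UCK2, which encodes a kinase that phosphorylates uridine and cytidine, had 16.5 to 22.8 CPM in females with a median of 18.05, and 11.0, 11.3, 9.74 and 11.6 CPM in males 25, 27, 30 and 38. All females lay above all males (log2 0.79 ± 0.19, SE, edgeR adjusted p = 0.728), and the log2 was 0.81 in the control line and 0.76 in the treated line. RABGAP1, which encodes a GTPase-activating protein of Rab proteins, and FSCN1, the actin-bundling protein fascin, also had no overlap of the sexes. Of all genes tested 0.17% had every female above every male. Genes picked by a low p tend to be among them, so the separation adds no support of its own. RABGAP1 averaged 56.3 ± 5.45 CPM (SD, n = 8) in females and 38.2 ± 4.57 CPM (SD, n = 4) in males. FSCN1, 1 of 2 IDs with its symbol, averaged 153 ± 10.3 CPM (SD, n = 8) and 113 ± 17.3 CPM (SD, n = 4). F13A1, the gene of a coagulation factor XIII subunit and also 1 of 2 IDs, had the largest log2 of the 5, 1.44 ± 0.31 (SE, edgeR adjusted p = 0.466), and its ranges overlapped. The chromatin protein gene hmga1b had a log2 of 0.63 ± 0.16 (SE). F0 males had 8.43 to 18.7 CPM of UCK2, 25.4 to 95.9 CPM of RABGAP1 and 78.7 to 174 CPM of FSCN1, each range reaching into that of the F2 females.

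Towards males, with clone names set aside, the 5 nearest to passing were apoeb, dhrs11b.2, apof, kctd12.2 and SDHC. The clone-named si:dkey-150k17.2, singled out after its values were seen, was nearer than these (log2 −0.95 ± 0.17, SE, edgeR adjusted p = 0.155). The apolipoprotein E gene apoeb had 251 to 395 CPM in females with a median of 344, and 608, 584, 391 and 462 CPM in males 25, 27, 30 and 38. Its groups overlapped through treated-line male 30 (log2 −0.59 ± 0.11, SE, edgeR adjusted p = 0.272). dhrs11b.2, of the short-chain dehydrogenase family, had 19.9 to 38.7 CPM in females with a median of 26.6. Its males had 60.8 and 60.9 CPM in the control line and 45.3 and 45.6 CPM in the treated line. Those groups did not overlap, where 0.426% of all genes had every male above every female (log2 −0.95 ± 0.19, SE, edgeR adjusted p = 0.332). F0 males, at 16.2 to 38.4 CPM, overlapped F2 females and lay below every F2 male. kctd12.2, related to a mammalian auxiliary subunit of GABA-B receptors, had 42.8 to 58.0 CPM in females and 70.0 to 75.5 CPM in males (log2 −0.49 ± 0.11, SE, edgeR adjusted p = 0.644). The apolipoprotein F gene apof had a log2 of −0.60 ± 0.13 (SE) and overlapped. With DESeq2, F13A1, RABGAP1, UCK2, FSCN1, apoeb, dhrs11b.2 and SDHC passed, at adjusted p-values of 0.00572 to 0.0498.

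Of the IDs without a symbol, ENSDARG00000098360 had the lowest p towards females, with 484 to 1152 CPM in females and 521 to 622 CPM in males (log2 0.65 ± 0.17, SE, edgeR adjusted p = 0.791). The sexes overlapped through female 28 of the treated line. ENSDARG00000110940 had the lowest p towards males, with 100 to 144 CPM in females and 144 to 193 CPM in males (log2 −0.45 ± 0.11, SE, adjusted p = 0.791).

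Genes of the mitochondrial respiratory chain, the complexes that carry electrons to oxygen and make ATP, leaned towards males as a list, although no member passed on its own. Of 84 nuclear genes tested, 76 had a log2 towards males, where 54.3% of all genes tested and 61.7% of genes of at least 100 CPM did. At an unadjusted p below 0.05, 24 were higher in males (28.6%, beside 2.69% of all genes) and none in females. Among all genes of at least 100 CPM that share was 7.94%. The median log2 was −0.18, beside −0.03 for all genes and −0.05 for genes of at least 100 CPM. Without females 6, 24 and 21 the median was −0.19 and 27 members had an unadjusted p below 0.05 towards males (32.1%, beside 3.62% of all genes). When the outside-gene share was added to the fit, the median was −0.15 and 4 members did (4.76%, beside 0.858% of all genes). In the control line, where the median of the list was −0.26, markers of radial glia and oligodendrocytes also leaned towards males, with a median of −0.24 each. In the treated line the medians were −0.11, 0.10 and −0.03 in that order. The part of these cell types in the result was not tested.

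Within the chain, the 5 complex II genes had the lowest median, −0.43, and all 5 had a log2 towards males. SDHC, which anchors complex II in the membrane, had 135 to 178 CPM in females with a median of 150, and 215, 198, 197 and 218 CPM in males 25, 27, 30 and 38. SDHB, its iron-sulfur subunit, had 210 to 304 CPM in females with a median of 269, and 371, 326, 369 and 364 CPM in these males. For both genes every male lay above every female. The log2 was −0.43 ± 0.10 for SDHC and −0.45 ± 0.11 for SDHB (SE), with edgeR adjusted p-values of 0.644 and 0.728. The catalytic subunit SDHA had a log2 of −0.46 ± 0.12 (SE) and overlapped between the sexes.

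Complex I had a median log2 of −0.22, with 35 of 37 genes towards males and 13 at an unadjusted p below 0.05. NDUFB6, an accessory subunit, had the lowest p there, with 36.1 to 61.0 CPM in females and 61.4 to 74.1 CPM in males (log2 −0.50 ± 0.14, SE, edgeR adjusted p = 0.795). All 9 genes of complex III leaned towards males, with a median of −0.27. In complex IV 15 of 19 did, with a median of −0.15, and in complex V, the ATP synthase, 12 of 14 did, with a median of −0.17. Over the whole chain 9 members (10.7%) had every male above every female, beside 0.426% of all genes and 1.31% of genes of at least 100 CPM.

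The lean was present in both lines, with a median of −0.26 and 82 of 84 genes towards males in the control line and −0.11 and 65 of 84 in the treated line. By fish, the mean over members of log2(CPM + 0.5) was 7.25 to 7.35 in control-line females and 7.52 and 7.63 in control-line males. These did not overlap, which arises easily by chance with so few fish in a line. In the treated line this mean was 7.12, 7.56, 7.49 and 7.35 in females 6, 10, 24 and 28 and 7.47 and 7.56 in males 30 and 38, so females 10 and 24 lay among the males. F0 males spread from 6.93 to 7.92, wider than either sex of F2. The F0 controls lay at 6.93 to 7.21, below every control-line F2 fish, and the exposed F0 males at 7.11 to 7.92. All F0 males except exposed fish 16 and 24, at 7.92 and 7.49, lay below every F2 male. In contrast, the 13 protein genes encoded in the mitochondrial genome had a median log2 of 0.02, and none had an unadjusted p below 0.05. The share of gene reads from these genes was 9.37 ± 1.37% (SD, n = 8) in females and 8.70 ± 0.33% (SD, n = 4) in males. In whole brain, fewer cells of a type and less RNA per cell cannot be told apart.

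**Figure D4:**
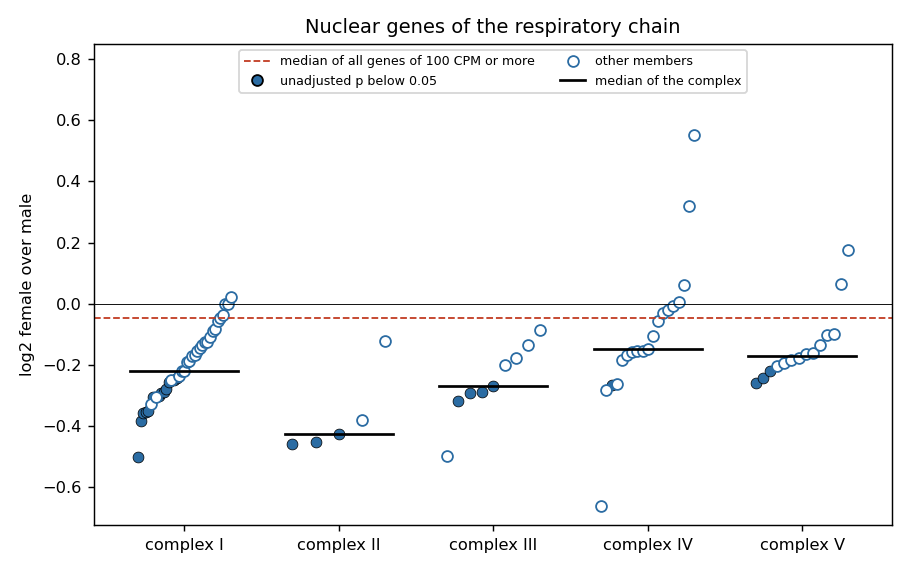
Log2 female over male for the 84 nuclear respiratory chain genes tested, by complex. Filled points have an unadjusted p below 0.05, black bars are the median of each complex, and the dashed line is the median of all genes of 100 CPM or more, −0.05. Every complex has its median below that line, with complex II lowest at −0.43, and no member passed after adjustment.

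No gene matched to the reproductive axis lists passed. Of 28 gonadotropic axis genes tested none passed. A log2 towards males was found in 20 of the 28, where 54.3% of all genes had one, and 1 gene had an unadjusted p below 0.05 towards males (3.57%, beside 2.69%). The 20 became 15 when the outside-gene share was fitted, and they were 15 in the control line and 20 in the treated line. Without females 6, 24 and 21, 27 were tested, 20 of them towards males, and 5 had an unadjusted p below 0.05 towards males (18.5%, beside 3.62% of all genes). Of 26 sex steroid receptor and coregulator genes none passed either. The estrogen receptor gene ESR1 averaged 6.73 ± 2.41 CPM (SD, n = 8) in females and 7.99 ± 1.64 CPM (SD, n = 4) in males. ESR2 matched 2 IDs: ENSDARG00000034181 averaged 9.36 ± 2.13 and 9.65 ± 3.23 CPM (SD), and ENSDARG00000016454 was under 2 CPM in every F2 fish.

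The progestin receptor gene PGR had no read in 4 of 8 females, 3 of them females 6, 24 and 21, and 1.86 to 2.65 CPM in the 4 males (log2 −1.61 ± 1.29, SE, edgeR adjusted p = 0.999). Its highest female, at 2.81 CPM, lay above all males. CYP19A1, the symbol of aromatase, named a single ID that could not be assigned to the brain or the ovarian paralog. The other paralog was not found under this symbol and may be among the IDs without a symbol. Whether brain aromatase differed by sex is therefore not answered by this ID. For the ID that was matched, the groups overlapped. That ID averaged 1.295 ± 0.91 CPM (SD) in females and 0.86 ± 0.62 CPM (SD) in males. The membrane progestin receptor gene PAQR6, picked after its values were seen, had the lowest p of the receptor list, at a log2 of −0.84 ± 0.28 (SE) and an edgeR adjusted p of 0.817.

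GAL, the gene of the neuropeptide galanin, had 19.8 to 114 CPM in females with a median of 62.9, and 136, 170, 43.1 and 157 CPM in males 25, 27, 30 and 38. Males 25, 27 and 38 lay above every female, and male 30 lay among the lower females. Its log2 was −0.99 ± 0.39 (SE), with an unadjusted p of 0.0294 and an edgeR adjusted p of 0.896. It was −0.57 without male 38. F0 males had 78.7 to 258 CPM of GAL.

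gnrh3, which encodes a gonadotropin-releasing hormone, had unlike sex differences in the lines, though none passed. Females of the treated line had 15.13 to 28.0 CPM and its males 7.12 and 8.57 CPM, without overlap. In the control line females had 6.63 to 12.4 CPM and males 10.4 and 8.41 CPM, which overlapped. The log2 was 1.46 ± 0.37 (SE) in the treated line and −0.05 ± 0.34 (SE) in the control line, and the difference had an unadjusted p of 0.00721 and did not pass after adjustment. Over both lines it was 0.64 ± 0.31 (SE, edgeR adjusted p = 0.963).

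The remaining peptide genes overlapped between the sexes and did not pass. The log2 was −0.13 ± 0.45 for gnrh2, −0.20 ± 0.44 for kiss1 and −0.61 ± 0.37 for kiss2 (SE), genes of gonadotropin-releasing hormone and of kisspeptins. It was −0.16 ± 0.19 for the tachykinin gene tac3a, 0.23 ± 0.48 for the oxytocin gene oxt, 0.38 ± 0.34 for the vasopressin gene avp and −0.25 ± 0.61 for POMC (SE).

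**Figure D5:**
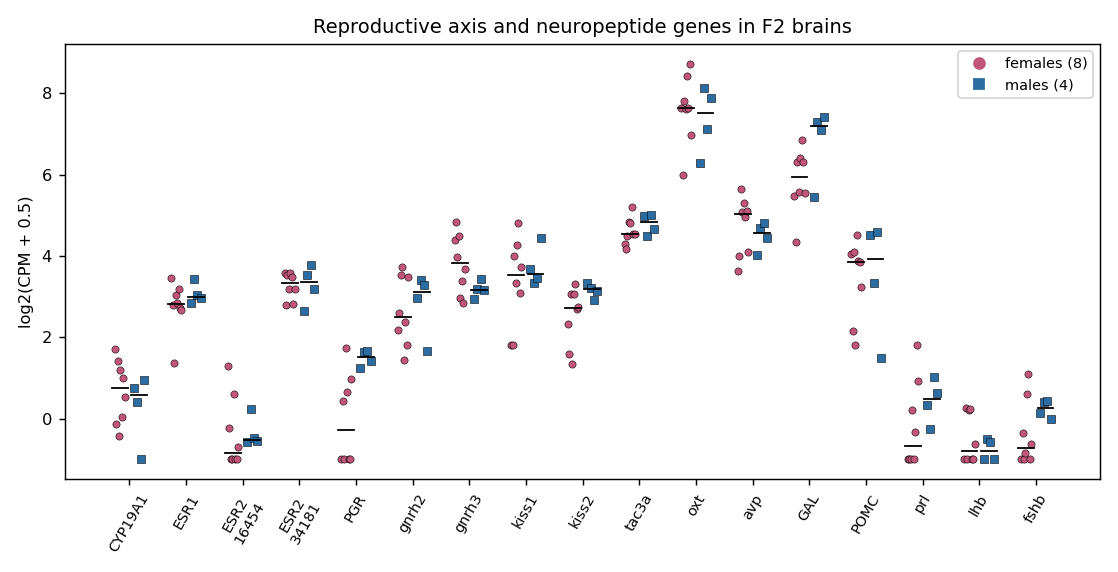
Level, as log2(CPM + 0.5), of 17 reproductive axis and neuropeptide gene IDs in each F2 fish, females as circles and males as squares, with bars at the medians. The 2 ESR2 columns carry the last digits of their IDs. No gene separates the sexes completely, and GAL has 3 of 4 males above all females.

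Of the pituitary hormone genes, lhb, fshb and prl, for luteinizing hormone, follicle-stimulating hormone and prolactin, averaged under 1 CPM in each sex, and gh1, for growth hormone, had 0 of 239666283 F2 gene reads. The egg yolk gene vtg1, a liver product in females, also had no read in either sex. Of 31 oocyte and ovary marker IDs, 5 reached the level for testing. None of these markers or of 19 testis and germ cell markers tested passed.

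Among the cell types of the brain no marker passed after adjustment. The median log2 was 0.04 over 34 neuron genes, −0.10 over 32 radial glia genes, −0.12 over 21 oligodendrocyte genes and 0.00 over 31 microglia and macrophage genes, beside −0.03 for all genes. At an unadjusted p below 0.05, 3 oligodendrocyte genes (14.3%) and 3 radial glia genes (9.38%) were higher in males, beside 2.69% of all genes. In the control line both glial medians were −0.24, with 18 of 21 and 27 of 32 genes towards males. In the treated line they were −0.03 and 0.10. Without females 6, 24 and 21 they were −0.14 and −0.10. In that fit 6 of 34 neuron genes had an unadjusted p below 0.05 towards females (17.6%, beside 4.19% of all genes). Another 2 had one towards males (5.88%, beside 3.62%), and the neuron median was 0.01. With the outside-gene share fitted, 3 neuron genes (8.82%) were higher in females at that level, beside 114 of 19463 genes. Then 1 oligodendrocyte gene (4.76%) and 2 radial glia genes (6.25%) were higher in males, beside 0.858% of all genes. In that fit 1 radial glia gene (3.1%) was higher in females, and the glial lean towards males was not seen in the medians. The median was −0.02 for oligodendrocyte genes, 11 of 21 towards males, and 0.06 for radial glia genes, 14 of 32 towards males. Summed levels of these lists overlapped between the sexes: neuron genes gave 14243 to 15565 CPM in females and 14217 to 15985 CPM in males, and oligodendrocyte genes 12380 to 20772 CPM and 16262 to 17364 CPM. Erythrocyte genes had a median of −0.31, with 15 of 17 towards males, where 54.3% of all genes were, and 1 at an unadjusted p below 0.05 (5.88%, beside 2.69%). Their summed level overlapped. That median was 0.00 in the control line, with 9 of 17 towards males, and −0.32 in the treated line, with 14. It was −0.19 with 11 towards males without females 6, 24 and 21, and −0.11 with 12 when the outside-gene share was fitted. Photoreceptor genes, which mark retina or pineal tissue, varied widely. Their sum over 45 genes was 46.3 to 1925 CPM in females and 66.1 to 1136 CPM in males, so its spread was as wide within each sex as between them.

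Of 45 proliferation genes, 34 had a log2 towards females, as did 45.7% of all genes. The median was 0.19, and 2 had an unadjusted p below 0.05 (4.44%, beside 2.48% of all genes). Without females 6, 24 and 21 these were 34 genes, a median of 0.35 and 9 genes (20%, beside 4.19% of all genes). With the outside-gene share fitted they were 37 genes, a median of 0.44 and 1 gene (2.22%, beside 114 of 19463 genes). The median was 0.15 in the control line and 0.13 in the treated line, with 1 such gene in each. The summed level of the 45 proliferation genes was 2531 to 3703 CPM in females and 2803 to 3286 CPM in males, so the males lay inside the range of the females. Of 45 immediate early genes, which neurons switch on when active, 32 leaned towards females with a median of 0.15. At an unadjusted p below 0.05, 4 were higher in females (8.89%, beside 2.48% of all genes) and 1 in males (2.22%, beside 2.69%). Without females 6, 24 and 21 the median was 0.12, and 4 were higher in females (8.89%, beside 4.19%). In that fit 3 were higher in males (6.67%, beside 3.62%). With the outside-gene share fitted, the median was 0.11 and 0 genes had such a p in either direction. The summed level of the immediate early genes was 2282 to 3973 CPM in females and 2759 to 2859 CPM in males, so the males lay inside the range of the females. Cytosolic ribosomal protein genes leaned in opposite directions in the lines, with a median of −0.10 in the control line and 0.13 in the treated line. That difference was not tested. Lists of GABA, glutamate, monoamine, clock, stress axis, cholesterol and interferon genes had no member past the adjusted threshold.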

How the data were processed

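Counts of reads per gene were deposited by the authors, unnormalised. Per the submitters' processing notes, cutadapt 2.1, STAR 2.7, HTSeq 0.11.2 and DESeq2 1.24.0 were used with GRCz11. Whether counting used strand, and which annotation release it used, is not stated there, which leaves genes that overlap or lie antisense uncertain. Of 32520 Ensembl IDs, 29201 had a symbol in the name table, often without the paralog suffix. HTSeq summary lines, with the reads outside genes, stayed out of library sizes and tests.

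Runs were summed for the 3 F2 fish with 2 runs: chi-square over degrees of freedom was 1.03 to 1.19 between their runs and 23.7 to 102 between fish. Genes were tested with edgeR 4.0.16 under R 4.3.3 (TMM, filterByExpr with a minimum count of 10, robust quasi-likelihood fit, sex with line as a term), and p-values were adjusted by Benjamini and Hochberg across every gene tested (threshold 0.05). The fit per line used 4 groups of sex and line. DESeq2 1.42.0, other scalings and filters, leaving out each fish, and leaving out 3 females were alternatives, the last chosen after seeing the data. On simulated data, with 200 genes of at least 5 CPM changed by sex, the test recovered 59% of 2-fold and 93% of 4-fold changes. There were 4 false calls among 18771 genes. With fewer genes changed the adjusted threshold is harder to reach, so these shares may be too high for data with 3 calls.

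The comparison and the gene lists (41 lists, 1434 of 1532 names matched) were chosen with earlier results of these data known. Genes named by rule were those called at 1 CPM or more, other than clone names, the 5 with the lowest p where fewer than 3 passed in a direction, and a set of reproductive genes. HSPA8, the 5S_rRNA ID, the clone names, PAQR6 and the IDs without a symbol were named outside this rule. So were the other complex II and thyroid signalling genes. All of these were chosen after their values were seen. Since reads carry no molecular identifiers, the limit for a gene at 0 (3 reads over all F2 fish) covers counting error only. Some genes of the lists are not reported here.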

Additional observations from a re-analysis of the deposited data

Results flagged for a closer look

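Of 128 tests of a gene or library measure within a sex, 13 had 1 fish far from the others of its sex. The nominal rate by chance is about 1 in 20. That rate need not hold for genes near 0 CPM or with the 2 lines pooled within a sex. No excess over chance is therefore read from the count. Male 38 of the treated line was high for ITPRID2 at 207 CPM (next 152), for an ESR2 ID at 0.685 CPM (next 0.214) and for ENSDARG00000098360 at 622 CPM (next 536). Male 30 of the treated line was high for a THRA ID at 3.47 CPM (next 1.80). Among control-line males, fish 25 was low for hmga1b at 40.8 CPM (next 50.7) and fish 27 was low for SDHB at 326 CPM (next 364).

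Female 6 of the treated line, 1 of the 3 females whose libraries held fewer genes, was high for a THRA ID at 5.98 CPM (next 2.72), TSHR at 2.76 CPM (next 1.22), RXRA at 11.0 CPM (next 6.22) and NCOR1 at 213 CPM (next 169). Female 24 was high for rxrgb at 6.61 CPM (next 4.04). Female 31 of the control line was high for prl at 2.98 CPM (next 1.40) and TG at 1.53 CPM (next 0.419). Of the genes that passed by sex, ITPRID2 is among these results, and DIO2 and si:dkey-238o13.4 are not.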

How the results depend on the processing

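The count of genes differing by sex, 3, became 12 with DESeq2, 6 with no count filter and 1 without females 6, 24 and 21, and lay between 2 and 4 when each fish was left out. In the control line the count of 4 became 11 with DESeq2 and lay between 0 and 4 when each fish was left out. It was 0 without male 27, with 1 male left in that line and assumed to vary like the other groups, and 2 without any 1 of the 4 control-line females or female 6. In the treated line the count of 1 became 3 with DESeq2, 2 with no count filter and 0 without those 3 females, and lay between 0 and 2 when each fish was left out. It was 2 without any 1 of female 39, female 6 and male 30. The count of 0 genes differing between the lines became 1 with no count filter and lay between 0 and 1 when each fish was left out, with the 1 arising without male 30. Of the genes with an unadjusted p below 0.05, 48.0% were higher in females, against 58.4% with relative log expression factors, 58.8% with upper-quartile factors and 35.5% with no count filter. DIO2 passed in all 23 alternatives, si:dkey-238o13.4 in 22 and ITPRID2 in 6. Among 778 values of single genes under the alternatives, no called gene changed sign, and 6 genes that had not passed took the opposite sign in 20 values; the causes of these changes were not tested. No paired analysis was possible because F2 females and F2 males share no fish number. With 4 males, simulated 2-fold changes were recovered in 59% of the genes given them, in a simulation with 200 changed genes. That share may be lower where few genes differ, so differences of 2-fold and less, and some larger ones, may have been missed.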
